A study of Mus musculus with 6 samples.

Results

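The genes of the mitochondrial ribosome were followed in cultured mouse cortical neurons that lacked FMRP, the RNA-binding protein missing in fragile X syndrome. Members were chosen by name: a row of the count table had to be called Mrpl or Mrps followed by a number and at most a letter from a to c, with a mean of at least 10 counts over the libraries. The names of 78 rows matched, 77 of them reached the count minimum, and all 77 had enough counts to be tested, out of 16976 tested genes and 55367 rows. Mrps36 was the lowest row inside the minimum, with a mean of 130 counts, and Mrpl53 was outside it with 1 read in all. RNA-seq was carried out on 3 WT and 3 Fmr1-KO libraries, all from the C57BL/6J strain, and Fmr1-KO was compared with WT throughout. The cells came from the cerebral cortex of pups at postnatal day 1 and were kept for 2 days in neuronal medium without further treatment, after a depletion of astrocytes and myelin that the study's methods describe. Both genotypes went through the same preparation, and the Fmr1-KO allele was present in the whole animal rather than in neurons alone. The labels gave no litter, sex or culture batch for a library, so P values measure the spread between these samples.

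Mitochondria carry their own ribosomes, which translate the few mRNAs copied from mitochondrial DNA into core subunits of the respiratory chain. The ribosomal RNAs come from mitochondrial DNA, but every protein of both subunits is encoded in the nucleus, made in the cytosol and imported. Neurons, with their high demand for ATP at synapses and growing axons, are among the cells affected when mitochondrial translation fails. 

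The libraries held 30348556 to 35126207 counts, TMM factors lay between 0.990 and 1.01, and the common biological coefficient of variation was 3.22%. Fmr1 itself stood at 118, 112 and 110 CPM (counts per TMM-scaled library total) in WT replicates 1, 2 and 3 and at 54.2, 61.4 and 56.7 CPM in the Fmr1-KO libraries, with a log2 fold-change of -0.98 (SE 0.04). The quasi-likelihood test of edgeR was used, with P values adjusted over all genes by the Benjamini-Hochberg method, and 42.6% of all tested genes passed at 0.05. Genes called lower made up 21.9% of those tested, and genes called higher made up 20.7%.

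Mitochondrial ribosomal protein genes changed little. By the same test, 10 members were lower in Fmr1-KO, 2 were higher, and 65 did not pass, so that 15.6% of the members were called. Among the 8442 other tested genes within the members' range of mean level, 3.91 to 70.1 CPM, 47.8% were called. The median log2 fold-change of the members was -0.01, beside 0.01 for all tested genes. When libraries were scaled by their totals alone, it was 0.01 for the members and 0.03 for all tested genes. Their interquartile range was 0.08, against 0.31 over all genes. The largest change of a member was 0.24 on the log2 scale in size, and 35.3% of all tested genes changed by more. Log2 fold-changes were below zero in 48 members and above zero in 29. The 3 Fmr1-KO libraries all lay on 1 side of the 3 WT libraries for 21 members, 14 below and 7 above, whereas 51.7% of all tested genes were separated in this way. Tested against a minimum of 1.2-fold, 0 members passed, while 1340 genes were lower and 883 higher among all tested. DESeq2 called 6 members lower and 2 higher, or 10.4% of the members against 34.8% of all genes with an adjusted P. Scaling by library totals alone gave 6 lower and 6 higher members in place of 10 and 2, and upper-quartile scaling gave 9 and 4. With these scalings, 43.7% and 42.8% of all tested genes were called. The number of lower members was 5 when WT replicate 3 or Fmr1-KO replicate 2 was left out, and 6 when WT replicate 2 or Fmr1-KO replicate 3 was left out. Leaving out 1 library left 9.09% to 14.3% of the members called, against 36.5% to 39.9% of all genes then tested.

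**Figure D1:**
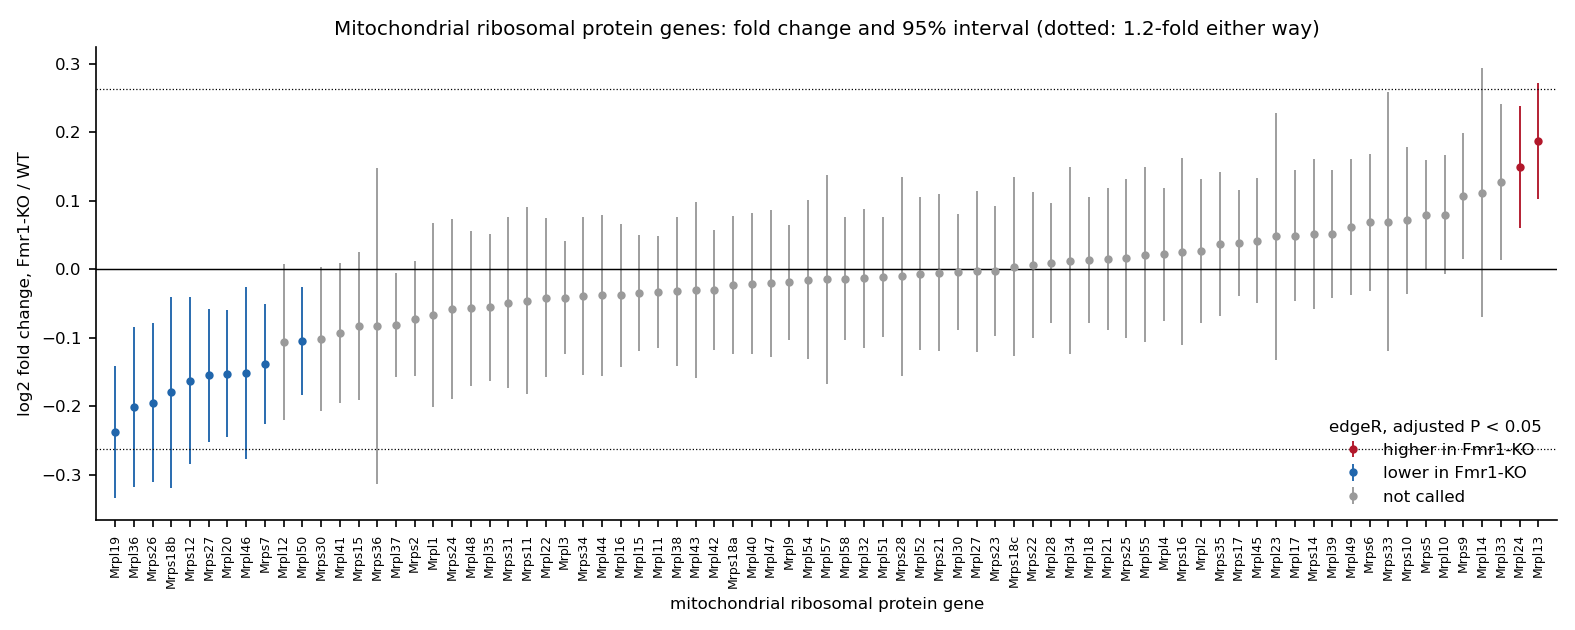
Log2 fold-change (Fmr1-KO relative to WT) of each of the 77 members, ordered by size, with its 95% interval from edgeR; blue points passed the test lower, red points passed it higher and grey points did not pass. The points run from -0.24 for Mrpl19 to 0.19 for Mrpl13, and the intervals of 68 members stay between the dotted lines, which mark a 1.2-fold change either way.

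The precision behind the uncalled members can be read from their intervals. For 63 of the 65 members that did not pass, the 95% interval lay inside a 1.2-fold change in either direction (0.26 on the log2 scale). The exceptions were Mrps36 and Mrpl14, whose intervals reached -0.31 and 0.29. The median half-width of an interval was 0.11. A failure to pass does not show equal levels, but for these genes changes beyond 1.2-fold fell outside the interval.

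Mrpl19 had the largest decrease. It encodes a protein of the large subunit with a bacterial homologue, and lies on chromosome 6 of GRCm38 from 81957851 to 81965958, minus strand. It stood at 39.99, 40.23 and 39.70 CPM in the WT libraries and at 34.97, 32.01 and 34.66 CPM in the Fmr1-KO libraries. The groups did not overlap, and the WT libraries were nearly level. The log2 fold-change was -0.24 (SE 0.05, adjusted P 0.000266), or 15.2% lower. Mrpl36, a small zinc-binding protein of the large subunit (chromosome 13, 73328513 to 73332178, plus strand), was at 23.1, 23.4 and 24.0 CPM in WT and 19.5, 21.2 and 20.7 CPM in Fmr1-KO. Every Fmr1-KO library was below every WT library, and the log2 fold-change was -0.20 (SE 0.06, adjusted P 0.00610). These 2 decreases passed in all 14 alternative settings that set no minimum fold.

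The 2 members that rose also encode proteins of the large subunit with bacterial homologues. Mrpl13 (chromosome 15, 55534094 to 55557748, minus strand) was at 41.9, 41.0 and 40.8 CPM in WT and 46.6, 46.4 and 47.7 CPM in Fmr1-KO. Both groups were tight and well apart, with a log2 fold-change of 0.19 (SE 0.04, adjusted P 0.000784), or 13.9% higher. Mrpl24, which sits near the exit of the tunnel through which the new peptide leaves (chromosome 3, 87919506 to 87923672, plus strand), was at 45.0, 47.8 and 43.6 CPM in WT and 50.3, 50.8 and 50.3 CPM in Fmr1-KO. The Fmr1-KO libraries again lay above all WT libraries, although WT varied more, and the log2 fold-change was 0.15 (SE 0.04, adjusted P 0.00715). Both increases passed in the same 14 settings, so that 4 of the 12 calls were kept in each of them.

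The other large-subunit decreases were Mrpl20, Mrpl46 and Mrpl50, which were lower by smaller amounts. Mrpl20, a homologue of the bacterial protein that helps ribosomal RNA to fold, was at 57.7, 60.7 and 59.8 CPM in WT and 54.5, 49.6 and 56.0 CPM in Fmr1-KO, a log2 fold-change of -0.15 (SE 0.04, adjusted P 0.00878). Fmr1-KO replicate 2 was the lowest library, and without it the value was -0.10 (adjusted P 0.0579). Mrpl46, a protein of the central protuberance, was at 21.5, 21.6 and 22.9 CPM in WT and 20.1, 18.5 and 20.8 CPM in Fmr1-KO, with a log2 fold-change of -0.15 (SE 0.06, adjusted P 0.0476). Its groups were separated by a narrow gap, and the call was lost without any single library except Fmr1-KO replicate 3 (adjusted P 0.0538 to 0.197). Mrpl50, a protein found in mitochondrial ribosomes only, was at 57.3, 59.2 and 59.1 CPM in WT and 54.7, 53.6 and 54.9 CPM in Fmr1-KO, the smallest called change at -0.10 (SE 0.04, adjusted P 0.0302). That call was lost without any single library except WT replicate 1 (adjusted P 0.0545 to 0.0853).

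The small subunit contributed 5 decreases and no increase. Mrps26, a mitochondria-specific protein, was at 33.0, 35.2 and 38.0 CPM in WT and 32.6, 29.2 and 30.9 CPM in Fmr1-KO, with a log2 fold-change of -0.19 (SE 0.06, adjusted P 0.00748). The WT libraries were spread widely, WT replicate 1 lay just above Fmr1-KO replicate 1, and without WT replicate 3 the value was -0.14 (adjusted P 0.0606). Mrps27, a pentatricopeptide repeat protein, was at 34.2, 35.4 and 34.2 CPM in WT and 32.1, 30.7 and 30.4 CPM in Fmr1-KO (log2 fold-change -0.16, SE 0.05, adjusted P 0.0109). It missed the threshold without Fmr1-KO replicate 3, at -0.14 (adjusted P 0.0507). Mrps7, which belongs to the head of the subunit and whose loss causes a human respiratory chain disease, was at 55.8, 61.1 and 59.8 CPM in WT and 55.0, 52.2 and 53.2 CPM in Fmr1-KO (log2 fold-change -0.14, SE 0.04, adjusted P 0.0113). WT replicate 1 was close to the Fmr1-KO libraries, and without WT replicate 2 the value was -0.11 (adjusted P 0.0547).

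Mrps18b and Mrps12 passed by less. Mrps18b, 1 of the 3 S18 homologues of the mitochondrial ribosome, was at 15.5, 14.8 and 16.4 CPM in WT and 14.4, 13.5 and 13.4 CPM in Fmr1-KO, a log2 fold-change of -0.18 (SE 0.07, adjusted P 0.0359). The call was lost without WT replicate 1 or 3 and without Fmr1-KO replicate 2 or 3 (adjusted P 0.0713 to 0.148). Mrps12, a protein of the decoding centre, was at 19.77, 21.41 and 20.98 CPM in WT and 19.01, 18.33 and 18.19 CPM in Fmr1-KO, a log2 fold-change of -0.16 (SE 0.06, adjusted P 0.0299). It was lost without WT replicate 2 or 3 and without Fmr1-KO replicate 2 or 3 (adjusted P 0.0682 to 0.0941). The calls of Mrps18b, Mrps12, Mrpl46 and Mrpl50 were also lost with DESeq2, with library totals alone and without a filter on low counts. Libraries of the 2 genotypes did not overlap for any of the 12 called members. These were picked by the test on the same libraries, so the separation adds no support to the calls.

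**Figure D2:**
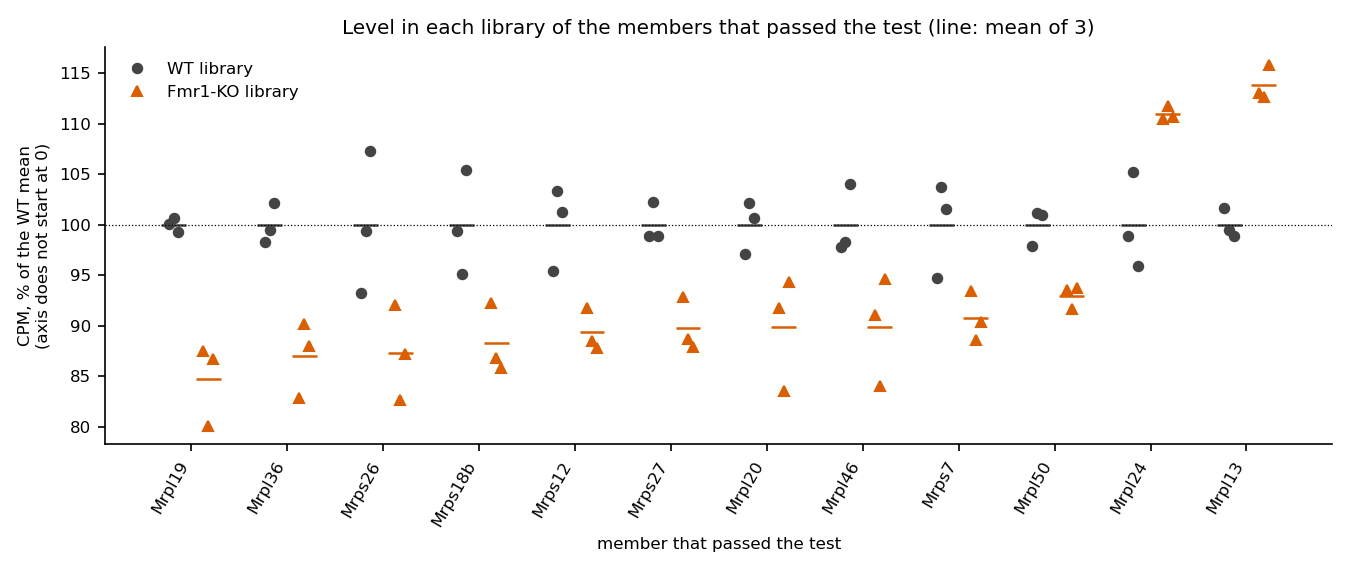
Level of the 12 called members in each library, in CPM as a percentage of the WT mean; circles are WT libraries, triangles are Fmr1-KO libraries and short lines are means of 3, on an axis that does not start at 0. No Fmr1-KO triangle of a gene reaches the range of its WT circles, in genes picked by the test on these same libraries. The largest shift, that of Mrpl19, leaves the Fmr1-KO mean 15.2% below WT.

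Members were also read by what their products do, beside the 42.6% of all tested genes that were called. The stalk of the large subunit, which recruits translation factors, is built on Mrpl10, Mrpl11 and Mrpl12, and 0 of the 3 were called. Mrpl12 was at 51.2, 54.3 and 60.8 CPM in WT and 54.5, 48.2 and 51.7 CPM in Fmr1-KO, so the groups overlapped, and the log2 fold-change was -0.11 (adjusted P 0.129). WT replicate 1 was its lowest WT library, and without it the value was -0.16 (adjusted P 0.0322). Mrpl10 (0.08, adjusted P 0.133) and Mrpl11 (-0.03, adjusted P 0.541) had log2 fold-changes of opposite sign. Mrpl10 passed when libraries were scaled by totals alone (0.11, adjusted P 0.0418).

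Of 7 proteins around the exit tunnel, 1 was called, the increase of Mrpl24. Mrpl45, which ties the ribosome to the inner membrane, gave 0.04 on the log2 scale (adjusted P 0.478), and Mrpl44, a relative of RNase III, gave -0.04 (adjusted P 0.631). Of 7 proteins of the central protuberance, only the decrease of Mrpl46 passed. Mrpl58, a peptidyl-tRNA hydrolase that frees stalled ribosomes, lay at 39.6, 39.7 and 38.5 CPM in WT and 39.7, 38.2 and 38.7 CPM in Fmr1-KO. Its groups overlapped, with a log2 fold-change of -0.01 and a 95% interval from -0.10 to 0.08.

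Among 5 proteins of the decoding centre and the mRNA path, 2 were lower, Mrps12 and Mrps7. That is 40% called, close to the 42.6% of all tested genes. The other S18 homologues differed from Mrps18b in not being called: Mrps18a was at -0.02 (adjusted P 0.744) and Mrps18c at 0.00 on the log2 scale (adjusted P 0.969). The difference between the homologues was not tested. Of 12 members whose mutation is known to cause combined oxidative phosphorylation deficiency in people, 1 was called, the decrease of Mrps7. Mrpl3 (-0.04, adjusted P 0.436), Mrps2 (-0.07, adjusted P 0.165), Mrps22 (0.01, adjusted P 0.936) and Mrps34 (-0.04, adjusted P 0.616) are of this kind. Mrps30, a large-subunit protein in spite of its name, was at -0.10 (adjusted P 0.112). Mrps36, now placed in the oxoglutarate dehydrogenase complex rather than in the ribosome, was the least counted member at 3.94, 3.90 and 4.23 CPM in WT and 3.87, 3.72 and 3.79 CPM in Fmr1-KO (-0.08, adjusted P 0.587).

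The 50 large-subunit members and the 26 small-subunit members were called at 14.0% and 19.2%. Large-subunit genes gave 5 lower and 2 higher, with a median log2 fold-change of -0.02, and small-subunit genes gave 5 lower and 0 higher, with a median of 0.00. Some of these proteins descend from bacterial ribosomal proteins, and others are found in mitochondrial ribosomes only. Members with a bacterial homologue numbered 45, of which 5 were lower and 2 higher (median 0.00). The 31 members classed as mitochondria-specific gave 5 lower and 0 higher (median -0.02). That class held the S18 homologues Mrps18a and Mrps18b, and Mrps18b was 1 of its 5 decreases, so the split depends on this assignment. When the members were divided at a median exon length of 2533 bases, 8 of the 39 shorter genes were lower and 1 was higher, and among the 38 longer genes 2 were lower and 1 was higher. Divided at the median length of the principal transcript, 1316 bases, each side held 5 lower and 1 higher.

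Summed over the 77 members, the level was 2611, 2675 and 2706 CPM in WT and 2668, 2569 and 2646 CPM in Fmr1-KO. The groups overlapped, with means of 2664 ± 48.2 (SD, n = 3) and 2627 ± 52.0 CPM (SD, n = 3). The Fmr1-KO mean was 0.986 of the WT mean, a difference smaller than the SD of either group. The ratio of summed large-subunit to small-subunit level was 2.21 ± 0.0195 (SD, n = 3) in WT and 2.21 ± 0.0272 (SD, n = 3) in Fmr1-KO. Members took 0.258% to 0.269% of the counts of a library, with means of 0.264% in WT and 0.265% in Fmr1-KO. For this unscaled share the Fmr1-KO mean was 1.005 of the WT mean. The direction of the small difference thus depended on the scaling. WT replicate 3 was the highest library for 26 members, and Fmr1-KO replicate 2 was the lowest for 27. Members can shift together within a library, and differences between libraries of a genotype were not tested. The median coefficient of variation of a member was 4.09% in WT and 3.29% in Fmr1-KO.

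Levels per kilobase of exon ranked Mrpl41 first at 38.5 CPM per kilobase (35.8 to 41.3 over the libraries), followed by Mrpl28 at 38.5 (36.3 to 40.1) and Mrpl12 at 34.9 (31.4 to 39.7). The ranges of these 3 over the libraries overlapped, and differences between genes within a library were not tested. The lowest levels on that scale were those of Mrpl33 at 3.07 (2.89 to 3.31), Mrps36 at 3.07 (2.92 to 3.32) and Mrpl23 at 1.51 (1.41 to 1.59), and the libraries of Mrpl23 all lay below those of the other two. The order depends on the gene model. Divided by the principal transcript alone, Mrpl33 ranked 7 of the members at 47.1 CPM per kilobase, and Mrpl42 (79.0), Mrpl20 (73.8) and Mrpl52 (71.0) ranked highest. Between the genotypes, the log2 fold-change of Mrpl41 was -0.09 (adjusted P 0.137), Mrpl28 of 0.01 (adjusted P 0.889), Mrpl33 of 0.13 (adjusted P 0.0652, and 0.0256 with library totals alone) and Mrpl23 of 0.05 (adjusted P 0.694).

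Promoter windows of 300 bases, 250 before and 50 after the RefSeq start on GRCm38.p6, were available for 68 of the 77 members. They were searched on both strands for 3 short motifs of factors known to act at nuclear genes of mitochondria. A gene was counted once if any of its windows matched, and shares are of genes with a window. GCGCATGCG, a core of the NRF1 site, was in 10.3% of the members, against 3.61% of tested genes and 1.95% of all genes. CCGGAAG, a core bound by ETS factors such as GABPA, was in 36.8% against 17.6% and 9.93%. AANATGGCG, a core of the YY1 site, was in 16.2% against 5.06% and 2.76%. At least 1 of the 3 was in 52.9% of the members, 24.0% of tested genes and 13.5% of all genes with a window. Members with the ETS core had a median log2 fold-change of -0.01 (25 members, 4 lower and 0 higher), and those without it of -0.02 (43 members, 5 lower and 1 higher). With the YY1 core the median was -0.06 (11 members, 2 lower and 0 higher), and without it 0.00 (57 members, 7 lower and 1 higher). With the NRF1 core it was -0.01 (7 members, 1 lower and 0 higher), and without it -0.01 (61 members, 8 lower and 1 higher). None of these splits was tested. A match describes the letters of a window and is not evidence of binding.

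The windows of called members differed in what they held. Mrpl36 had the YY1 core, Mrps27 had both the ETS and the YY1 core, Mrps18b had the NRF1 and the ETS core, and Mrpl24 had none of the 3. Mrps12 and Mrps26 had the ETS core, and Mrpl20, Mrpl46, Mrpl50 and Mrps7 had none of the 3. The decreases thus included members with and without a core. Mrpl19 and Mrpl13, the largest change in each direction, had no window. The windows of Mrpl36, Mrps27, Mrps18b and Mrpl24 are shown, 5′ to 3′ along the gene's strand, with a matched core in capitals.

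Mrpl36 promoter, chr13:73330759-73331058, plus strand: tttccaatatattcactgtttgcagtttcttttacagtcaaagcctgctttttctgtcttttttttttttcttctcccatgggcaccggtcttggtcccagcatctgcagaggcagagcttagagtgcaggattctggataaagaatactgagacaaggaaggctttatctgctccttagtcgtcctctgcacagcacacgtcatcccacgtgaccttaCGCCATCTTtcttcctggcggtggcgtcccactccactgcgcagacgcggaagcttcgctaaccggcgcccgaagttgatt

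Mrps27 promoter, chr13:99344536-99344835, plus strand: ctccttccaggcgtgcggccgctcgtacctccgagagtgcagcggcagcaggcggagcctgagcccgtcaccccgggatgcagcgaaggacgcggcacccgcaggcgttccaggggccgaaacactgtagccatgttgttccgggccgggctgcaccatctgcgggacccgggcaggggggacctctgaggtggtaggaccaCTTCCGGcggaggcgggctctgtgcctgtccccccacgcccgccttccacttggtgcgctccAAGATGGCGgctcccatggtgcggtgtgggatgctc

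Mrps18b promoter, chr17:35916391-35916690, minus strand: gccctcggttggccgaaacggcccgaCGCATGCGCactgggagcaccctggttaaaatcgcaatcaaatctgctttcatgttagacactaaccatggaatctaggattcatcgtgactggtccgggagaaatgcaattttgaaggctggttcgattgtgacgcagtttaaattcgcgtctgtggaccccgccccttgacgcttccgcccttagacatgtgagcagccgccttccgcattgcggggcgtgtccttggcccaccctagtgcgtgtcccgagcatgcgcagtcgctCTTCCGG

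Mrpl24 promoter, chr3:87919294-87919593, plus strand: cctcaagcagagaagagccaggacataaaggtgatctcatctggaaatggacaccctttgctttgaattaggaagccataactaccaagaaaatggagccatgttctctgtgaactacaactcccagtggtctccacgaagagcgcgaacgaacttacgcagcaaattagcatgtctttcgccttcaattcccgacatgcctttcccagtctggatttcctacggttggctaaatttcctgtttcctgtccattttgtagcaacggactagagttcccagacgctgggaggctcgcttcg

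Many members start back to back with another gene. A protein-coding gene on the opposite strand began within 1000 bases upstream of 18 of the 77 members, or 23.4%, against 9.26% of 14523 tested protein-coding genes. Mrpl46 and Mrps11, which overlap at their starts on opposite strands, were not counted as such a pair. Of these 18 neighbours, 4 were higher in Fmr1-KO, 1 was lower and 13 did not pass, with log2 fold-changes from -0.17 to 0.60. Over all tested genes, 20.7% were higher and 21.9% lower. Mrpl57 and Mrpl51 have the neighbours that rose most. The window of Mrpl57 is printed because it holds the start sites of both genes of the pair, with a single ETS core in capitals; the RefSeq window of Mrpl51 does not reach the start of its neighbour.

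Mrpl57 promoter, chr14:57825989-57826288, plus strand: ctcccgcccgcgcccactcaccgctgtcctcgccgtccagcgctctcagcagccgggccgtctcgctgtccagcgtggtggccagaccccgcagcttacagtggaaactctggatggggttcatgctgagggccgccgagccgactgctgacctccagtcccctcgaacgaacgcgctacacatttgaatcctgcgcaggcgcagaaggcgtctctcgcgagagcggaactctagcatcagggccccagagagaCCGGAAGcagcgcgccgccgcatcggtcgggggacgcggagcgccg

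Ncapd2, a condensin subunit used in mitosis, starts 100 bases from Mrpl51 in GENCODE. It was at 131, 128 and 124 CPM in WT and 190, 189 and 187 CPM in Fmr1-KO, with a log2 fold-change of 0.56 (SE 0.03, adjusted P 8.98e-12). Mrpl51 itself was at 44.6, 46.5 and 44.4 CPM in WT and 43.6, 46.1 and 44.7 CPM in Fmr1-KO, so its groups overlapped. Its log2 fold-change was -0.01, with a 95% interval from -0.10 to 0.08, and that of Ncapd2 ran from 0.49 to 0.63. Ska3, which links kinetochores to spindle microtubules, starts 49 bases from Mrpl57 and was at 9.41, 9.26 and 8.66 CPM in WT and 13.8, 13.3 and 14.3 CPM in Fmr1-KO. It rose by 0.60 on the log2 scale (SE 0.07, adjusted P 7.94e-07), with a 95% interval from 0.45 to 0.75. Mrpl57 was at 17.98, 17.03 and 19.51 CPM in WT and 19.74, 16.07 and 18.11 CPM in Fmr1-KO, again with overlapping groups, and its log2 fold-change of -0.01 had an interval from -0.17 to 0.14. The Fmr1-KO libraries were thus above WT for both neighbours and mixed with WT for both members.

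The other neighbours moved less. Lrrc46, beside Mrpl10, was called with a log2 fold-change of 0.45 (adjusted P 0.00203), and Helq, a helicase gene beside Mrps18c, at 0.15 (adjusted P 0.0356). Hira, a histone chaperone gene beside Mrpl40, fell by 0.17 on the log2 scale (adjusted P 0.00668). Of the called members, 4 are head to head with another gene, and the neighbour was not called in any of the 4: Zfp189 beside Mrpl50, Sars2 beside Mrps12, Ptcd2 beside Mrps27 and Ppp1r10 beside Mrps18b. With 42.6% of all tested genes called, 4 pairs are too few to read this as a trait of called members. Sars2, the mitochondrial seryl-tRNA synthetase gene, starts 172 bases from Mrps12 and was at 0.05 on the log2 scale (adjusted P 0.597).

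**Figure D3:**
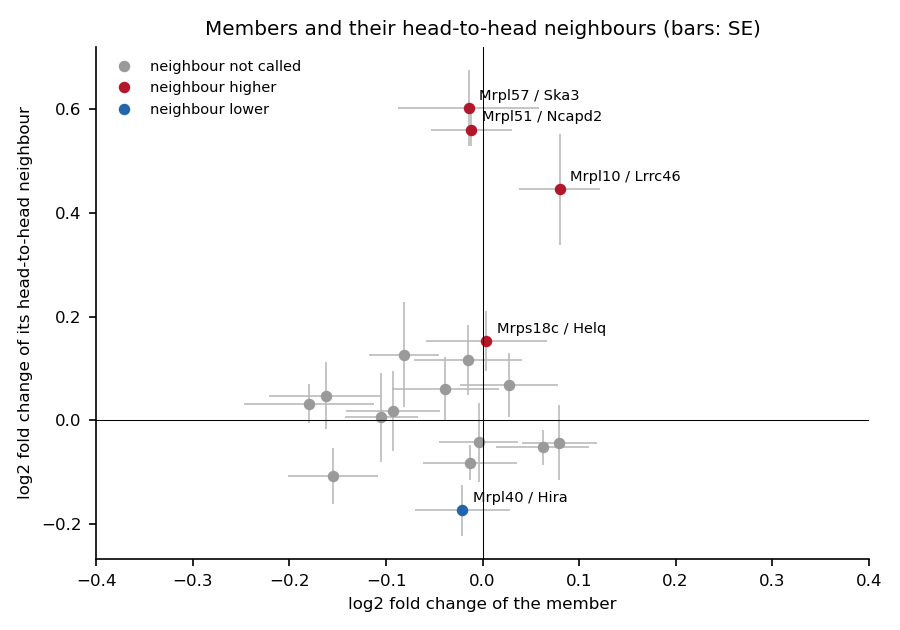
Log2 fold-change of the 18 members with a head-to-head neighbour (horizontal) against that of the neighbour (vertical), with bars of 1 SE; red neighbours were called higher, blue lower and grey not called. Ska3 at 0.60 and Ncapd2 at 0.56 stand above Mrpl57 and Mrpl51, which both lie at -0.01.

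The remaining machinery of mitochondrial translation was followed in lists, and their counts stand beside the 42.6% of all tested genes that were called. Of 5 ribosomal proteins with other names, 1 was higher: Ptcd3, a small-subunit protein, at 68.7, 67.2 and 65.4 CPM in WT and 72.1, 75.3 and 69.7 CPM in Fmr1-KO (log2 fold-change 0.11, adjusted P 0.0278). Of 28 assembly factors, 3 were lower and 3 were higher, with a median log2 fold-change of 0.00. Mrm1, which methylates the RNA of the large subunit, was at 9.03, 10.3 and 9.05 CPM in WT and 6.89, 6.66 and 7.01 CPM in Fmr1-KO, a fall of 0.46 on the log2 scale (adjusted P 0.000156). It was well separated between the genotypes. Rbfa, a maturation factor of the small subunit, was at -0.13 (adjusted P 0.0442). Tfb1m, a methyltransferase of the small-subunit RNA, was at 0.28 (adjusted P 0.0350), and Mpv17l2 at 0.21 (adjusted P 0.00944).

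Of 13 translation factors, 0 were lower and 3 were higher, with a median log2 fold-change of 0.06. Guf1, a ribosome-bound GTPase, was at 74.4, 72.7 and 70.4 CPM in WT and 79.9, 85.6 and 82.3 CPM in Fmr1-KO (log2 fold-change 0.19, adjusted P 0.000357). Mrrf, the ribosome recycling factor, was at 0.18 (adjusted P 0.0332). The 17 mitochondrial aminoacyl-tRNA synthetases gave 2 lower and 3 higher. Mars2 fell by 0.29 (adjusted P 6.42e-05) and Yars2 by 0.19 (adjusted P 0.0221), whereas Wars2 rose by 0.30 (adjusted P 0.00517), all on the log2 scale.

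Of 12 genes of mitochondrial DNA transcription and maintenance, 2 were lower and 1 was higher. Polrmt, the mitochondrial RNA polymerase, was at -0.13 (adjusted P 0.0347), Polg, the DNA polymerase, at -0.09 (adjusted P 0.0389) and Ssbp1, the single-strand binding protein, at 0.20 (adjusted P 0.00123). Of 10 nuclear regulators of mitochondrial genes, 3 were lower and 3 were higher. Nrf1, whose core motif was searched above, was at 35.65, 35.78 and 35.93 CPM in WT and 41.61, 40.02 and 43.20 CPM in Fmr1-KO (log2 fold-change 0.22, adjusted P 0.000411). Gabpa, the ETS factor, rose by 0.18 (adjusted P 0.00159). Yy1, the factor of the remaining core, was at 107, 111 and 105 CPM in WT and 99.2, 101 and 102 CPM in Fmr1-KO, and its log2 fold-change was -0.10 (adjusted P 0.0282). Its groups were separated, but the call was lost without WT replicate 1 or 2, without Fmr1-KO replicate 1 (adjusted P 0.0523 to 0.121) and with library totals alone (-0.07, adjusted P 0.115). Myc fell by 0.30 (adjusted P 2.48e-06), from 53.7, 55.6 and 53.2 CPM to 44.3, 43.4 and 43.9 CPM, and Pprc1, a coactivator of the PGC family, fell by 0.19 (adjusted P 0.000868), both on the log2 scale.

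Several of these calls were marginal, and leaving out any 1 of several libraries was enough to lose them. The call was lost when 1 library was left out for Ptcd3 (either WT replicate 2 or 3, or Fmr1-KO replicate 1 or 2, adjusted P 0.0508 to 0.123), Rbfa (WT replicate 1 or 3, Fmr1-KO replicate 2 or 3, 0.0999 to 0.156) and Tfb1m (WT replicate 2 or 3, Fmr1-KO replicate 1 or 3, 0.0703 to 0.113). The same held for Mrrf (WT replicate 1 or 3, Fmr1-KO replicate 1 or 3, adjusted P 0.0612 to 0.147) and Yars2 (WT replicate 1 or 2, Fmr1-KO replicate 2 or 3, 0.0549 to 0.0738). Polrmt lost it without any library except Fmr1-KO replicate 1 (adjusted P 0.0550 to 0.143), and Polg without any except Fmr1-KO replicate 2 (0.0632 to 0.159). Each of these 7 calls was also lost with DESeq2.

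The RNAs on which the mitochondrial ribosome is built and which it reads were partly measured, in libraries made from poly(A) RNA. The ribosomal RNA of the small subunit, mt-Rnr1, was at 267, 275 and 268 CPM in WT and 232, 221 and 237 CPM in Fmr1-KO, a log2 fold-change of -0.23 (adjusted P 4.33e-06). The ribosomal RNA of the large subunit, mt-Rnr2, was at 697, 771 and 695 CPM in WT and 671, 656 and 685 CPM in Fmr1-KO (-0.10, adjusted P 0.0214). For mt-Rnr2 the groups were close, and without WT replicate 2 the value was -0.05 (adjusted P 0.187); the call was also lost without Fmr1-KO replicate 1 or 2 (adjusted P 0.0528 and 0.0649). Of 13 protein-coding mRNAs of mitochondrial DNA, 7 were tested and 1 was called. The table listed mt-Co1 at 200041 to 241229 counts a library, but mt-Co3, mt-Atp8 and mt-Nd4l at 0 in every library, mt-Co2 and mt-Atp6 at 1 read in all and mt-Nd3 at 2 to 7 counts. Respiring cells use all of these genes, so the low entries are not read as levels, and what set them was not tested. The called mRNA was mt-Cytb, at -0.13 (adjusted P 0.00151), from 5741, 6022 and 5663 CPM in WT to 5137, 5476 and 5312 CPM in Fmr1-KO.

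Other large families were measured in the same way. Of 81 cytosolic ribosomal protein genes, 14 were lower and 0 were higher, with a median log2 fold-change of -0.04. The number lower was 5 with library totals alone, 6 without WT replicate 3, 7 without Fmr1-KO replicate 3 and 8 without Fmr1-KO replicate 2. Of 81 nuclear genes of oxidative phosphorylation, whose products join the proteins made on mitochondrial ribosomes, 26 were lower and 2 were higher, with a median of -0.06. There the number lower was 11 with library totals alone or without WT replicate 3, and 14 without Fmr1-KO replicate 2. The share called was 17.3% and 34.6% in these families, beside 15.6% of the mitochondrial ribosomal protein genes. No difference between families was tested.

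**Figure D4:**
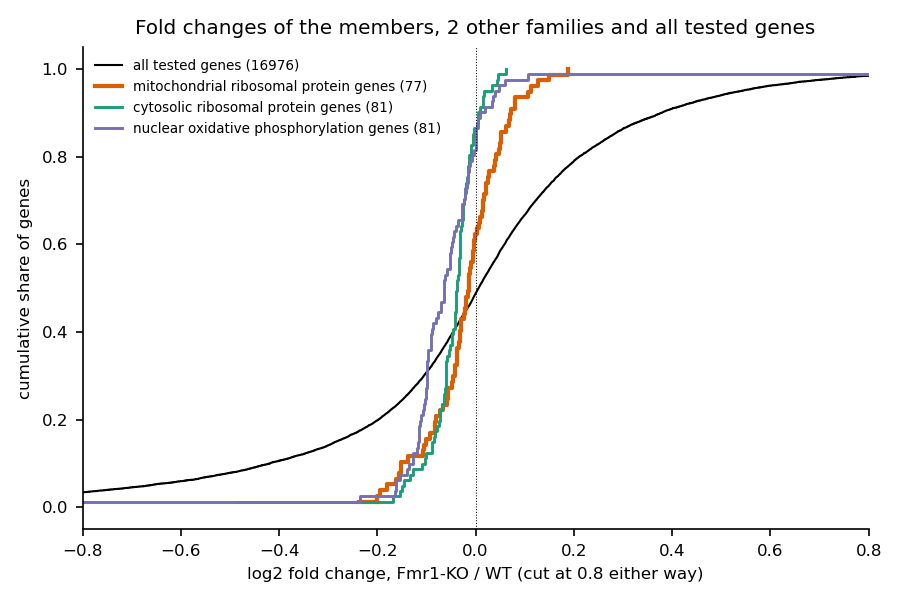
Cumulative share of genes (vertical) by log2 fold-change in Fmr1-KO relative to WT (horizontal, drawn from -0.8 to 0.8) for the 77 members, 81 cytosolic ribosomal protein genes, 81 nuclear oxidative phosphorylation genes and all 16976 tested genes. The 3 families rise steeply near zero, with medians of -0.01, -0.04 and -0.06, and the curve of all genes is wider, with an interquartile range of 0.31 against 0.08 for the members.

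Markers of cell types, taken by list, moved more than the members did. The median size of the log2 fold-change ran from 0.21 in astrocyte markers to 1.02 in erythroid markers, against 0.04 in the members. Over all tested genes that median was 0.15, and 42.6% were called. Of 14 neuronal markers, 13 were lower and 1 was higher in Fmr1-KO, and their summed level lay between 6895 and 7012 CPM in the WT libraries and between 5519 and 5797 CPM in the Fmr1-KO libraries. All 20 markers of proliferating cells were higher, with sums of 972 to 1025 CPM in WT and 1626 to 1689 CPM in Fmr1-KO. All 10 oligodendrocyte-lineage markers were lower, with sums of 2346 to 2551 and 1344 to 1448 CPM. Of 10 microglial markers, 8 were lower and 0 higher, with sums of 239 to 265 and 141 to 157 CPM. Progenitor markers gave 1 lower and 6 higher of 12 (2531 to 2559 and 2881 to 2955 CPM), and astrocyte markers gave 4 lower and 3 higher of 9 (5185 to 5317 and 4601 to 4973 CPM). In the astrocyte sum, Gfap alone went from a mean of 2649 CPM in WT to 2297 CPM in Fmr1-KO. Of 8 tested endothelial and mural markers, 2 were lower and 4 higher (248 to 273 and 412 to 431 CPM). Most of that sum was Acta2, at a mean of 176 CPM in WT and 322 CPM in Fmr1-KO. Both tested erythroid markers were lower (1.90 to 2.46 and 1.11 to 1.52 CPM). None of the marker genes was at 0 in all libraries. In bulk samples, fewer cells of a type and less RNA per cell cannot be told apart, and the part of these shifts in the members' values was not tested.

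The gene models limit a few members. On the same strand, 7 members share exon bases with another gene, and 4 share more than 10%: Mrps34 shares 37.0% with Nme3, Mrps18c 23.2% with Gm43511, Mrps6 19.9% with Gm49711 and Slc5a3, and Mrps24 15.4% with Urgcp. None of the 4 was called, and their values are uncertain to that extent. Mrpl53, the name that failed the count minimum, shares 88.0% of its exon bases with Gm42688, which held 116, 113 and 109 counts in WT and 119, 96 and 110 counts in Fmr1-KO. Pseudogenes named after members had 6 rows for 4 members, and no library gave any of them more than 9 counts.

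NMD targets were the subject of the comparison as the study designed it. Of the 1027 names on the study's list of NMD targets in a neuroblastoma line, 2 were members. Mrps7 was lower, as given above, and Mrpl49 stood at 39.2, 40.2 and 36.5 CPM in WT and 41.8, 38.7 and 40.5 CPM in Fmr1-KO, with overlapping groups and a log2 fold-change of 0.06 (adjusted P 0.318).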

How the data were processed

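RNA of 3 WT and 3 Fmr1-KO cultures was sequenced from stranded poly(A) libraries. The authors deposited raw counts per gene; per their processing notes, bcl2fastq 2.19.0, STAR 2.7.6a on GRCm38.p6 and featureCounts (Subread 2.0.1) were used. Their methods name other versions of bcl2fastq and Subread, and add FastP trimming and reverse-stranded counting by gene name. Counting by name does not separate isoforms. Totals were 30348556 to 35126207 counts, and 0 columns were left unused.

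Groups followed the labels. Counts were filtered (filterByExpr), scaled by TMM and tested with edgeR 4.0.16 (R 4.3.3, glmQLFit and glmQLFTest, 2-sided, genotype as the only term, Benjamini-Hochberg adjustment over all 16976 genes, threshold 0.05). CPM are TMM-scaled. SE is the log2 fold-change divided by the root of F. DESeq2 1.42.0, other scalings and filters, a replicate block, a 1.2-fold minimum and leaving out each library were alternatives. The code was tested on simulated data. Positions and exons came from GENCODE M21 (98.6% of tested names found) and promoters from RefSeq. Members and lists were chosen with earlier results of these data known. Genes were named by rule: Fmr1, the called members (at most 10 a direction), the 3 highest and lowest by level, members with set roles, those nearest the count minimum, members among NMD targets, and the 2 largest called changes a direction in each list. A gene selected by this rule is not reported here. Head-to-head neighbours, genes with shared exons, mitochondrial mRNAs listed at or near 0, mt-Co1, Yy1, Gfap, Acta2, Mrpl14, Mrpl42 and Mrpl52 were named after their values were seen. Proteins and isoforms were not analysed here.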

Additional observations from a re-analysis of the deposited data

How the results depend on the processing

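With a 1.2-fold minimum in the test, 0 members were called (0 lower and 0 higher in either subunit), and 1340 genes were lower and 883 higher of all tested. DESeq2 gave 6 lower members (3 large-subunit, 3 small-subunit), as did testing without a filter (6, 3 and 3). Each called 10.4% of the members, against 34.8% of all genes with DESeq2 and 22.5% without a filter. The cause was not tested. Library totals alone gave 6 lower (3 and 3) and 6 higher members (4 large-subunit, 2 small-subunit), and upper-quartile scaling gave 4 higher, 1 of them small-subunit, as with the stricter filter (1). Leaving out each library gave 5 to 9 lower members and 2 to 3 higher, 2 to 5 lower in the large and in the small subunit, 0 to 1 higher in the small subunit, and a small-subunit median log2 fold-change of -0.0389 to 0.0205.

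Signs of uncalled members near zero changed: leaving out libraries gave log2 fold-changes of -0.0193 to 0.0489 for Mrpl28, -0.0691 to 0.00388 for Mrps18a, -0.0516 to 0.0329 for Mrps18c, -0.0235 to 0.0284 for Mrps22 and -0.0720 to 0.0125 for Mrps34. Library totals alone gave 0.0143 for Mrpl58 and 0.00490 for Mrps18a. Of 12 calls, 4 were kept in all 14 settings without a fold minimum, 4 were lost in 1 and 4 in 7 to 9.

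Replicate numbers did not pair the libraries (correlations of deviations -0.03, 0.03 and -0.01). With a replicate block, 10 members were lower and 2 higher, and 3694 and 3488 of all genes.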
